A study of Homo sapiens with 12 samples.

Results

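The 6 control libraries of 2 established colorectal carcinoma cell lines were compared with each other: 3 libraries of HCT116 that carried an empty vector and 3 libraries of RKO that carried a negative control for a short hairpin RNA (a construct that lowers a chosen transcript). They are 6 of the 12 mRNA libraries of the study, whose other 6 are HCT116 with a CKAP2L overexpression construct and RKO with a short hairpin RNA against CKAP2L. All libraries were chosen by their titles. The titles of RKO short hairpin replicates 2 and 3 name shCKAP2L, whereas their genotype labels read shCKAP3L and shCKAP4L. What these 2 libraries carry is therefore uncertain from the labels. CKAP2L itself was at 7.82 and 8.56 TPM in them, at 7.59 TPM in short hairpin replicate 1 and at 24.0 to 25.8 TPM in the RKO negative controls. For the control libraries the labels call the HCT116 group a control and the RKO group a negative control. The study's title names CKAP2L, STAT3, AREG and EGFR in smoking and colorectal cancer, and it gives no question for a comparison of the lines as such. The deposited values are TPM, the share of a gene among a library's transcripts after adjustment for length, for 20263 genes that both tables list. Of these, 12609 had a mean of at least 1 TPM over the 6 control libraries and were tested.

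HCT116 and RKO are widely used models of the mismatch repair-deficient form of colorectal cancer. HCT116 is known for an activating mutation of CTNNB1, which encodes beta-catenin, and RKO for an activating BRAF mutation. An epithelial cell is recognised by E-cadherin junctions, claudins and keratins, and transcription factors such as ZEB1 repress many of these genes.

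The lines differ in construct as well as in origin, and each line has its own deposited table, so line, construct and any batch cannot be told apart. Nothing in the labels says that the 3 libraries of a line came from separate cultures, so the tests rest on the spread among these 3, which could be technical. Fewer cells that use a gene and less RNA per cell cannot be told apart in such bulk libraries. Because TPM keeps no depth, that of each library is unknown. Between 16536 and 16558 genes were above 0 in the HCT116 libraries and between 14181 and 14217 in the RKO libraries. Of 394 olfactory receptor genes, which colon cells are not known to use, 43 to 55 were above 0 in HCT116 and 16 to 21 in RKO, and the part of this difference in the results was not tested. Mitochondrially encoded mRNAs took 28.04% to 28.56% of all TPM in HCT116 and 20.4% to 22.51% in RKO.

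The 2 lines had very different transcriptomes, and the libraries of one line were nearly alike. Across tested genes, which are not independent replicates, Pearson's r of log2(TPM + 1) was 0.9973 to 0.998 among the HCT116 libraries, 0.9991 to 0.9992 among the RKO libraries and 0.7301 to 0.7358 between the lines. The limma test called 11319 of 12609 genes (89.8%) different at an adjusted p under 0.05. Of the tested genes, 36.3% were called higher in HCT116 and 53.5% higher in RKO, and the groups did not overlap for 90.0%. Differences are given throughout as HCT116 minus RKO in log2(TPM + 1). The added 1 shrinks the differences of low genes. A standard error (SE) follows each ± sign. Their median over all tested genes was -0.20. Median-of-ratios rescaling moved that median to 0.00 and the share of calls higher in HCT116 from 40.4% to 50.2%, so the direction of small differences depends on the scaling.

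With so many calls, size separates genes better than the test does. Counts of called members of the gene lists below are to be read beside the shares over all tested genes, 36.3% higher in HCT116 and 53.5% higher in RKO. A difference of at least 2, a 4-fold change on this scale, was found for 1219 called genes higher in HCT116 (9.67% of tested genes) and for 409 higher in RKO (3.24%). The median absolute difference between the lines was 0.66. It was 0.0912 between HCT116 with and without the CKAP2L construct and 0.1723 between RKO with and without the short hairpin.

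**Figure D1:**
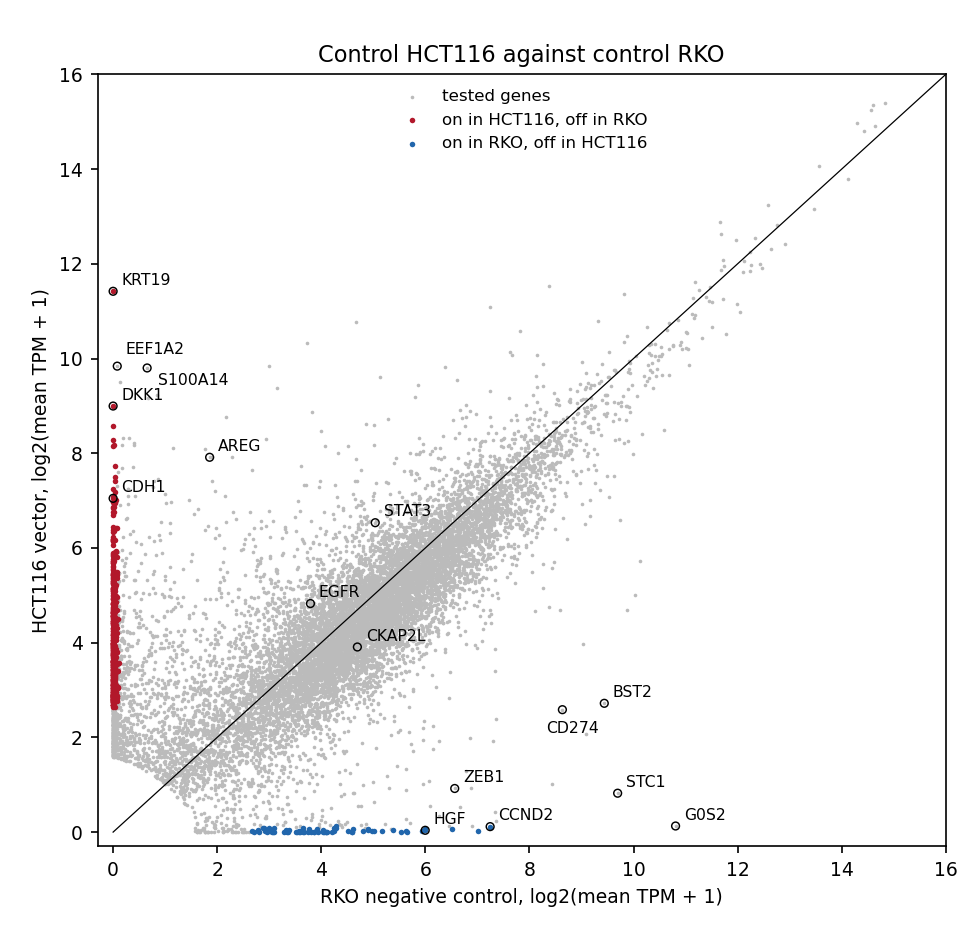
Mean TPM of every tested gene in the 3 RKO negative control libraries (horizontal axis) against the 3 HCT116 vector libraries (vertical axis), both as log2(mean TPM + 1), with the line of equal values. Genes on in HCT116 and off in RKO (red, 444 genes) line the left edge up to KRT19, and genes on in RKO and off in HCT116 (blue, 71 genes) line the lower edge.

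KRT19, which encodes a type I keratin of simple epithelia (ENSG00000171345, GRCh38 chromosome 17, 41523617 to 41528308, minus strand), differed most of all tested genes. It was at 2718, 2698 and 2800.0 TPM in the HCT116 libraries and was listed at 0 in each RKO library. It pairs with type II keratins in the filaments of epithelial cells. The difference was 11.42 ± 0.04 (limma adjusted p = 2.71e-19). EEF1A2, a translation elongation factor best known from nerve and muscle, was at 903.2, 903.5 and 939 TPM in HCT116 and at 0.03, 0.03 and 0.11 in RKO (difference 9.76 ± 0.05, limma adjusted p = 1.02e-17). KRT7 encodes a type II keratin of simple epithelia. It was at 712, 719 and 759.6 TPM in HCT116 and at 0.08, 0.22 and 0 in RKO. S100A14, a calcium-binding protein of epithelial cells, was at 890.2, 914 and 869 TPM against 0.70, 0.41 and 0.61. In none of these genes did the lines overlap, as in 90.0% of all tested genes. They were chosen for their large differences, which set this outcome.

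Secreted proteins and proteases also stood among the 20 genes with the largest difference towards HCT116. DKK1, a secreted inhibitor of WNT signalling (chromosome 10, 52314296 to 52318042, plus strand), reached 505, 502 and 523 TPM in HCT116 and was listed at 0 in every RKO library (difference 9.00 ± 0.04, limma adjusted p = 1.02e-17). KLK6, a secreted serine protease, was at 369.7, 370.4 and 394 TPM and likewise listed at 0 in RKO. ALDH1A3, an enzyme that makes retinoic acid, was at 599, 591 and 618 TPM against 0.70, 0.79 and 0.90. LCN2, a lipocalin that binds bacterial siderophores, was at 183, 175 and 182 TPM against 0, 0.08 and 0, and MSLN, the surface protein mesothelin, at 194, 193 and 192 TPM against 0.08, 0 and 0.13. HBE1, the embryonic epsilon globin, was at 219, 212 and 203 TPM in HCT116 and at 0, 0.08 and 0 in RKO. All HCT116 values of these 6 genes were above all RKO values, which their choice by large difference had set. The groups did not overlap for 90.0% of all tested genes.

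In the other direction, G0S2, which encodes an inhibitor of the triglyceride lipase ATGL (chromosome 1, 209675420 to 209676388, plus strand), differed most. It was at 1754, 1858 and 1765 TPM in RKO and at 0, 0.05 and 0.23 in HCT116 (difference -10.68 ± 0.07, limma adjusted p = 5.38e-17). STC1, the secreted hormone stanniocalcin, was at 837, 823 and 824 TPM in RKO and at 0.89, 0.70 and 0.71 in HCT116 (difference -8.88 ± 0.05). Both genes were therefore near the floor of one line and among the abundant transcripts of the other. RGS4, which switches off G protein signalling, was at 349, 348 and 340.2 TPM in RKO and at 1.19, 0.92 and 0.97 in HCT116, a TPM ratio of 337. LCP1, the actin-bundling protein L-plastin best known from white blood cells, was at 547, 545 and 535 TPM against 2.91, 3.30 and 3.34, a ratio of 170.4. TM4SF1, a membrane protein, was at 118, 117 and 118 TPM against 0.12, 0.10 and 0.08.

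The 20 genes with the largest difference towards RKO had various roles. CD274, which encodes PD-L1, the ligand that restrains T cells (chromosome 9, 5450503 to 5470566, plus strand), stood at 403, 396 and 389.5 TPM in RKO and at 4.70, 4.90 and 5.40 in HCT116. The TPM ratio was 79.2 (difference -6.05 ± 0.05, limma adjusted p = 1.53e-16). BST2, the antiviral membrane protein tetherin, was at 681, 700.0 and 698 TPM in RKO and at 5.74, 6.16 and 4.86 in HCT116, a ratio of 124. IL32, a cytokine, was at 160.6, 164 and 164 TPM against 0.27, 0.15 and 0.13. HGF, the ligand of the MET receptor, was at 63.9, 63.9 and 60.8 TPM in RKO and at 0, 0 and 0.08 in HCT116, while MET itself was at 49.4 to 51.5 TPM in RKO and at 88.2 to 95.1 in HCT116. TRBV12-4, a variable segment of the T cell receptor beta locus, was at 118, 122 and 112 TPM in RKO and at 1.96, 0.52 and 0.25 in HCT116. The T cell marker CD3E was listed at 0 in each RKO library, and reads of near-identical beta segments cannot be told apart from these tables. The remaining genes of the 20 include TXNIP, which binds thioredoxin (87.9, 92.4 and 89.4 TPM against 0.10, 0 and 0.05), and CBR1, a carbonyl reductase (85.7, 88.02 and 86.6 TPM against 0, 0.05 and 0.25).

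Many genes were on in one line and off in the other. A gene was counted as on where every library of a line had at least 5 TPM and as off where every library had at most 0.1 TPM, a rule with no test. By it 444 genes were on in HCT116 and off in RKO, which is 2.19% of the 20263 genes and 4.31% of the 10293 genes on in HCT116. In the other direction 71 genes were on in RKO and off in HCT116, which is 0.35% of all genes and 0.719% of the 9872 genes on in RKO. Another 9107 genes were on in both. RKO also had more genes off in general, 6785 against 4511 in HCT116, and more genes listed at 0 in every library, 5283 against 2705.

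The on and off genes were mostly of middle abundance. The median TPM in the line where they were on was 13.55 for HCT116 and 13.48 for RKO, 25 and 2 of them had a mean of at least 100 TPM, and 286 and 48 had at least 10. In the line where they were off, 260 of the 444 and 26 of the 71 were listed at 0 in every library. Raising the limit for off to 1 TPM gave 710 and 150 genes. The libraries that carried a manipulation of CKAP2L give another look at the same lines, though with other constructs and from the same tables. There 380 of the 444 genes and 56 of the 71 met the rule again, and 0 of the 444 and 0 of the 71 reached 1 TPM in every library of the line where they had been off.

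Surface and secreted proteins were among the 15 most abundant genes on in HCT116 and off in RKO. TINAGL1, a matricellular protein, was at 277, 281 and 297 TPM and listed at 0 in RKO. COL6A2, a collagen VI chain, was at 125, 127 and 135 TPM against 0.03, 0.05 and 0.03. IL18, a cytokine that inflammasomes process, was at 118, 126 and 131 TPM against 0, 0.05 and 0, and KLK5, a serine protease that activates other kallikreins, was at 149, 151 and 151 TPM and listed at 0 in RKO.

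By level, the genes on in RKO and off in HCT116 began with CCND2 and BCL2A1. CCND2, which encodes cyclin D2, a partner of the G1 kinases (chromosome 12, 4273772 to 4305350, plus strand), stood at 152, 148 and 152 TPM in RKO and at 0.10, 0.10 and 0.05 in HCT116. BCL2A1, an inhibitor of apoptosis, was at 128, 128 and 128 TPM in RKO and at 0.07, 0 and 0 in HCT116. DLC1, a GTPase-activating protein, was at 64.5, 63.5 and 60.2 TPM against 0.07, 0.02 and 0.05. PLBD1, a phospholipase-like protein, was at 47.3, 49.2 and 50.6 TPM in RKO and at 0.02, 0 and 0 in HCT116. The other genes of the 15 lay between 28.8 and 89.9 TPM on average in RKO, among them ZNF883, ACOT2, TUSC1 and SLC15A3.

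Epithelial adhesion genes were far higher in HCT116. CDH1, which encodes E-cadherin, the adhesion molecule of epithelial junctions (ENSG00000039068, chromosome 16, 68737225 to 68835548, plus strand), reached 128, 129 and 137 TPM in HCT116 and was listed at 0 in every RKO library (difference 7.05 ± 0.05, limma adjusted p = 1.36e-16). Of 27 tested genes of epithelial adhesion and junctions, 24 were called higher in HCT116, 2 higher in RKO and 1 was not called, with a median difference of 2.03 against -0.20 over all tested genes. Large differences numbered 14 towards HCT116 and 0 towards RKO. The tight junction proteins CLDN4 (313, 316 and 329 TPM against 0.11, 0.30 and 0.32) and CLDN7 (302, 306 and 285 TPM against 0.19, 0.16 and 0.61) were near the floor of RKO. JUP, which encodes plakoglobin of desmosomes and adherens junctions, was at 312, 311 and 329.9 TPM against 0.11, 0.05 and 0.27. EPCAM was lower but present in RKO, at 16.5, 16.03 and 15.2 TPM against 281, 284 and 287 in HCT116, a TPM ratio of 17.9.

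Some junction genes did not follow this pattern. CLDN12, another claudin, was at 26.6, 26.9 and 26.3 TPM in HCT116 and at 73.4, 73.8 and 70.8 in RKO, where it was called higher (difference -1.42 ± 0.04, limma adjusted p = 4.28e-12). CTNNB1, beta-catenin, was at 140.3, 138 and 147 TPM in HCT116 and at 182, 181 and 178 in RKO (difference -0.35 ± 0.03). TJP1, the scaffold protein ZO-1, was not called, at 34.7, 34.8 and 38.7 TPM in HCT116 and at 38.3, 35.6 and 35.6 in RKO. Its groups overlapped.

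Regulators and proteases of the epithelial state followed the adhesion genes. Of 24 such genes, all tested, 22 were called higher in HCT116 and 2 higher in RKO, 17 with a large difference towards HCT116, and the median difference was 4.31. The transcription factors GRHL2 (19.7, 20.2 and 20.8 TPM) and EHF (67.9, 70.6 and 75.0 TPM) were listed at 0 in RKO. ESRP1, a splicing factor that sets epithelial isoforms, was at 124, 119 and 123 TPM in HCT116 and at 0.03 in each RKO library. Its paralog ESRP2 was present in both lines, at 42.6, 42.7 and 43.8 TPM in HCT116 and at 53.9, 56.6 and 51.3 in RKO. The membrane protease ST14, known as matriptase, was at 279, 282 and 307 TPM in HCT116 and at 0.03, 0 and 0 in RKO, whereas its inhibitor SPINT1 was at 184, 186 and 185 TPM in HCT116 and at 153, 158 and 148 in RKO. OVOL1 and OVOL2, related zinc finger factors, went opposite ways, with OVOL1 at 25.7 to 26.2 TPM in HCT116 and at most 0.03 in RKO and OVOL2 at 0.51 to 0.97 TPM in HCT116 and at 5.33 to 5.80 in RKO.

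Keratins, the filaments of epithelial cells, showed the contrast in 13 of 14 tested genes, each called higher in HCT116 and each by a large difference, with a median of 4.47. Their summed TPM was 7549.8 to 7948 in the HCT116 libraries and 212 to 224 in the RKO libraries. KRT8 and KRT18, the pair of simple epithelia, were present in RKO at a lower level. KRT18 was at 144, 156 and 148 TPM in RKO against 2162, 2121 and 2242 in HCT116, and KRT8 was at 23.5, 24.1 and 25.8 TPM against 1702, 1715 and 1858. KRT10, a keratin of stratified epithelia, was the 1 gene not called (48.5 TPM on average in HCT116 and 43.0 in RKO), while all 14 were called higher in HCT116 under median-of-ratios rescaling and quantile normalization. KRT81 and KRT86 share much sequence, and their values are uncertain for that reason.

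**Figure D2:**
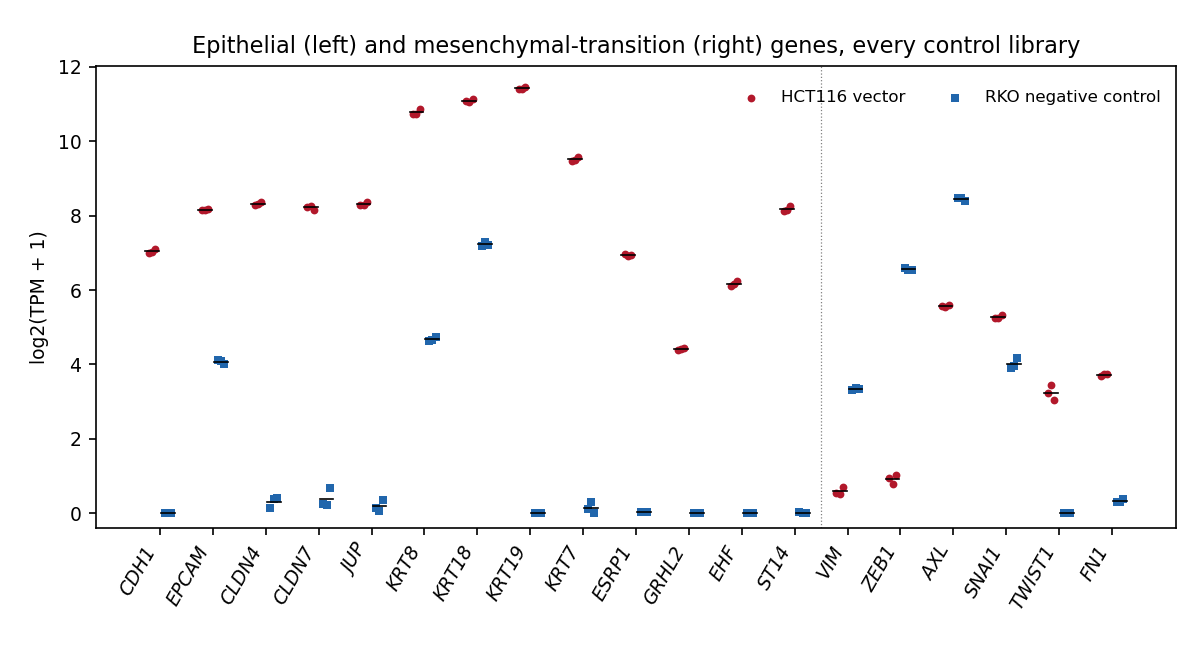
Log2(TPM + 1) of 13 epithelial genes (left of the dotted line) and 6 genes of mesenchymal transition (right of it) in each of the 3 HCT116 vector libraries (red circles) and 3 RKO negative control libraries (blue squares), with a bar at each group's mean. The 13 epithelial genes chosen for display are high in HCT116, and most of them are at or near 0 in RKO. The genes on the right do not share 1 direction. Epithelial list members that did not follow the pattern, such as CLDN12, CTNNB1, TJP1, ESRP2 and OVOL2, are not shown.

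Mesenchymal genes did not mirror this. Of 19 listed genes 9 were tested, 5 were called higher in HCT116 and 4 higher in RKO, and 8 were below 1 TPM in every control library, among them CDH2, ZEB2 and PRRX1. ZEB1, the repressor of epithelial genes (chromosome 10, 31318495 to 31529814, plus strand), stood at 96.0, 92.4 and 92.5 TPM in RKO and at 0.92, 0.72 and 1.04 in HCT116 (difference -5.65 ± 0.07, limma adjusted p = 2.88e-15). VIM, the mesenchymal filament protein vimentin, was at 8.91, 9.35 and 9.07 TPM in RKO and at 0.45, 0.42 and 0.64 in HCT116. Both were thus higher in RKO, although VIM stayed under 10 TPM. AXL, a receptor tyrosine kinase often tied to the mesenchymal state, was at 352, 351 and 333 TPM in RKO and at 46.5, 46.1 and 47.7 in HCT116, a TPM ratio of 7.39. In the other direction, TWIST1 was at 8.30, 9.87 and 7.21 TPM in HCT116 and listed at 0 in RKO, FN1, fibronectin, was at 11.9, 12.3 and 12.4 TPM against 0.22, 0.22 and 0.29, and SNAI1 was at 36.7, 36.8 and 38.9 TPM against 13.95, 14.6 and 17.1.

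ZEB1 is known to bind E-boxes with the core CACCTG, which reads CAGGTG on the other strand. Promoter windows are shown for 3 genes that were high in HCT116 and near 0 in RKO and whose window holds this core: RAB25, a GTPase of epithelial vesicle traffic, ELF3, an epithelial transcription factor, and EREG, the EGF receptor ligand described further on. Each is the 250 bases before the gene's start in RefSeq (GRCh38.p14), 5′ to 3′ on the gene's strand, with the core in capitals. RAB25 lies at chr1:156060910-156061159, ELF3 at chr1:202010337-202010586 and EREG at chr4:74364895-74365144, all on the plus strand.
RAB25: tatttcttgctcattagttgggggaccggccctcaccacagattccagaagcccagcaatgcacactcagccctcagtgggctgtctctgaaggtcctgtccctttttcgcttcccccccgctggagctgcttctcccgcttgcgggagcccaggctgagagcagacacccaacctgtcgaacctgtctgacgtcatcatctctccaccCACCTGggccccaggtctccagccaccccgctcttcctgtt
ELF3: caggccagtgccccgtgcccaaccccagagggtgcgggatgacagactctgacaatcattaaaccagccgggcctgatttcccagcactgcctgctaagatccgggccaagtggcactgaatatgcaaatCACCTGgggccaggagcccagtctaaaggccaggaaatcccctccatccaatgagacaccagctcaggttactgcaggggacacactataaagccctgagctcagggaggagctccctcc
EREG: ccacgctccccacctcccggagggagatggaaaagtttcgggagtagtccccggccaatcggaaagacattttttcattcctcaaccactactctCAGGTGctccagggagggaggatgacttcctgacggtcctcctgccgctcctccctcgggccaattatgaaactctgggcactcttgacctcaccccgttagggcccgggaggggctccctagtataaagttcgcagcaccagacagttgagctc
The core begins 41 bases before the start of RAB25, 120 before that of ELF3 and 155 before that of EREG. Of all 35116 promoter windows of this length, 17.5% hold CACCTG or CAGGTG on either strand, so a match is a description of these letters and not a bound site. RAB25 was at 204, 201 and 208 TPM in HCT116 and at 0.08, 0.05 and 0.24 in RKO, and ELF3 was at 86.3, 81.9 and 85.7 TPM against 0.05, 0.05 and 0.03.

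Markers of the colon were mostly low in both lines. Of 27 colon epithelial genes in the tables, 19 were below 1 TPM in every control library, including VIL1, CDH17, GPA33 and LGALS4, so the labelled tissue of origin is seen in few of its defining markers. CDX2, the intestinal homeobox factor, was present in both and not called, at 13.49, 12.5 and 12.7 TPM in HCT116 and at 13.3, 12.9 and 12.9 in RKO. The nuclear receptors HNF4A and HNF4G split between the lines: HNF4A was at 3.01, 3.06 and 3.21 TPM in HCT116 and listed at 0 in RKO, and HNF4G was at 5.51 to 6.5 TPM in RKO and at 0.89, 0.89 and 0.76 in HCT116. Of 12 gastric and foregut genes 1 was tested, GATA4, a transcription factor of the foregut, which was listed at 0 in HCT116 and was at 16.3, 16.5 and 15.9 TPM in RKO. Its relative GATA6 was at 6.81 to 7.84 TPM in HCT116 and at 5.88 to 6.31 in RKO.

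Defining markers of other cell types were near 0, with 1 gene of each list as the exception. Of 10 fibroblast, 10 immune and 8 endothelial markers, 9, 9 and 7 were below 1 TPM in every control library. COL1A1 was at 39.9 to 43.5 TPM in HCT116, and ESAM was at 25.9 to 30.4 TPM there. CD68, a lysosomal glycoprotein used as a macrophage marker, was at 1048, 1031 and 1045 TPM in RKO and at 34.8, 30.04 and 28.95 in HCT116, while the leukocyte markers PTPRC, MS4A1 and TYROBP were listed at 0 in each RKO library.

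Receptors and ligands of the basement membrane differed in both directions. Of 18 tested integrin and laminin genes 9 were called higher in each line, against 36.3% in HCT116 and 53.5% in RKO over all tested genes. The list's median difference of -0.13 turned to 0.37 under median-of-ratios rescaling, 0.06 under quantile normalization and 0.76 without mitochondrial mRNAs. ITGB4, the integrin of hemidesmosomes, was at 288, 275 and 305 TPM in HCT116 and at 0.11, 0.11 and 0.16 in RKO. ITGB1, the common beta chain, was at 1178, 1136 and 1126 TPM in RKO and at 337, 328 and 356 in HCT116. LAMA3 and LAMB3, chains of the laminin that hemidesmosomes bind, went opposite ways. LAMA3 was at 6.04, 5.91 and 5.81 TPM in HCT116 and listed at 0 in RKO. LAMB3 was higher in RKO, at 732, 756 and 716 TPM against 134, 129 and 138. LAMA1, the alpha chain of laminin-111, was at 26.01, 25.3 and 23.04 TPM in RKO and at 1.89, 1.59 and 1.68 in HCT116.

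The 4 genes of the study's title differed in level before any manipulation. CKAP2L, a mitotic spindle protein (ENSG00000169607, chromosome 2, 112736607 to 112764677, minus strand), was at 14.2, 12.8 and 15.2 TPM in control HCT116 and at 24.9, 24.0 and 25.8 in control RKO. It was higher in RKO by a TPM ratio of 1.78 (difference -0.79 ± 0.06, limma adjusted p = 1.11e-07), with no overlap. The other 3 were higher in HCT116. STAT3, a transcription factor that cytokine and growth factor receptors activate, was at 88.2, 91.4 and 95.2 TPM against 33.5, 32.2 and 29.7, a ratio of 2.88 (difference 1.498 ± 0.049, limma adjusted p = 2.81e-11). EGFR, the epidermal growth factor receptor, was at 26.8, 26.7 and 28.7 TPM against 12.8, 13.3 and 12.5, a ratio of 2.13 (difference 1.03 ± 0.05, limma adjusted p = 9.77e-10). AREG, amphiregulin, a ligand of that receptor, was at 237, 236 and 248 TPM against 2.79, 2.12 and 2.94, a ratio of 91.8 (difference 6.07 ± 0.08, limma adjusted p = 4.95e-15). The order of the 4 within HCT116 was AREG, STAT3, EGFR and CKAP2L, and within RKO STAT3, CKAP2L, EGFR and AREG, where no neighbours overlapped in either line.

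For scale, the manipulations give other values for these genes, from comparisons that share the control libraries. The CKAP2L construct brought CKAP2L to 231, 231 and 219 TPM in HCT116, and the short hairpin brought it to 7.59, 7.82 and 8.56 TPM in RKO. AREG was at 304 to 314 TPM in HCT116 with the construct and at 0.98 to 2.01 TPM in RKO with the short hairpin. Each AREG library of HCT116 was therefore far above each AREG library of RKO, whatever the construct.

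Other EGF receptor ligands had the same direction. Of 9 tested genes of the EGFR family all 9 were called higher in HCT116, 4 by a large difference, with a median of 1.03. Under quantile normalization 8 were called higher in HCT116 and 1, the low ligand gene BTC (1.57 TPM on average in HCT116 and 0.737 in RKO), higher in RKO. EREG, epiregulin, whose promoter is printed above, was at 54.2, 58.2 and 57.7 TPM in HCT116 and listed at 0 in RKO (difference 5.85 ± 0.06, limma adjusted p = 8.12e-16). TGFA, transforming growth factor alpha, was at 62.6, 64.2 and 66.7 TPM against 5.96, 5.60 and 5.25. HBEGF, the heparin-binding ligand, differed less, at 21.2, 22.6 and 21.3 TPM against 12.8, 13.2 and 13.3. ERRFI1, the feedback inhibitor of the receptor, was at 412, 417 and 442 TPM against 37.5, 38.7 and 37.6. Of the other receptors, ERBB2 was at 53.8 to 57.1 TPM in HCT116 and at 42.2 to 45.9 in RKO, and ERBB3 at 17.8 to 17.9 and 12.7 to 13.47 TPM.

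**Figure D3:**
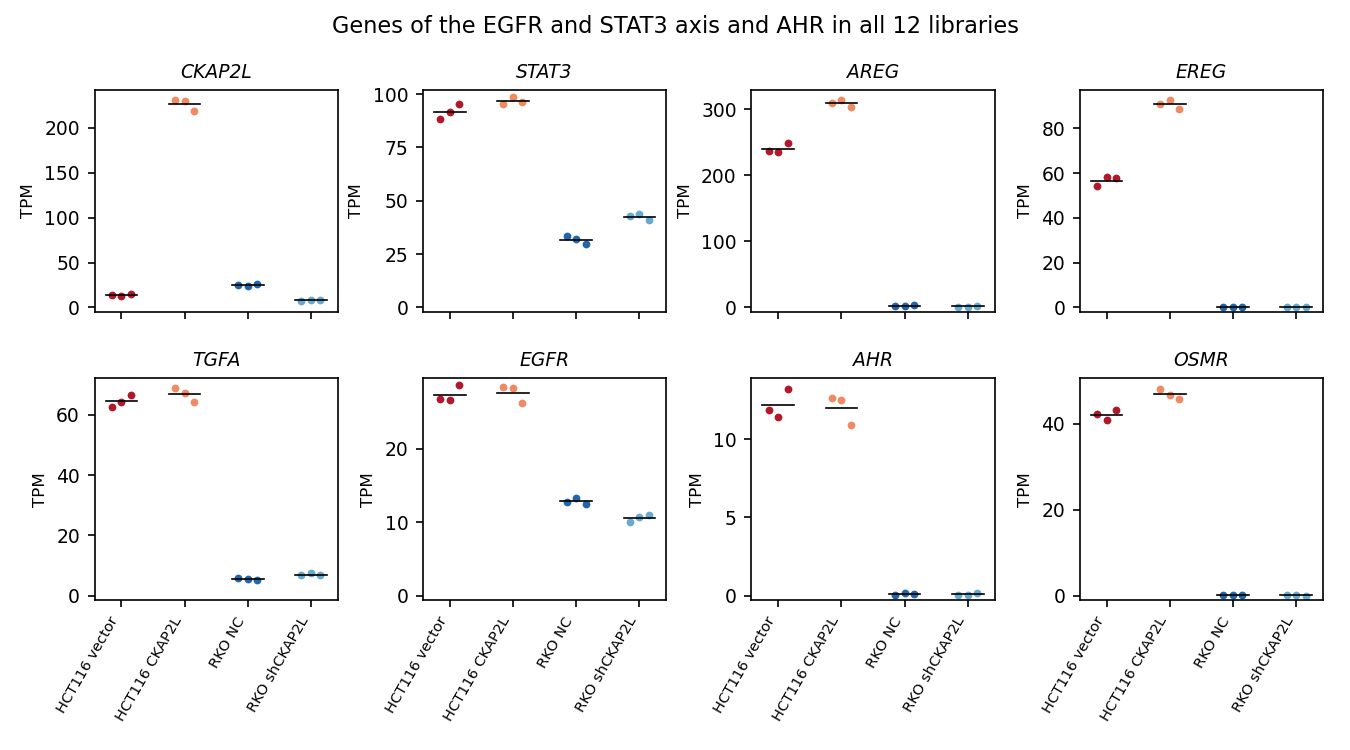
TPM of 8 genes in all 12 libraries, by group, with a bar at each group's mean of 3 libraries and a vertical axis of its own for each gene that starts near 0. STAT3, EGFR, AREG, EREG, TGFA, AHR and OSMR separate the lines whatever the construct. CKAP2L is highest in HCT116 with the CKAP2L construct, at 219 to 231 TPM.

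Receptors that feed STAT3 were not alike in the lines, although the list as a whole was balanced. Of 26 tested genes 12 were called higher in each line, against 36.3% in HCT116 and 53.5% in RKO over all tested genes. The list's median of -0.02 became 0.19 under median-of-ratios rescaling, 0.09 under quantile normalization and 0.11 without mitochondrial mRNAs. OSMR, the oncostatin M receptor, was at 42.2, 40.7 and 43.1 TPM in HCT116 and at 0.05, 0.08 and 0.05 in RKO, and LIFR, the receptor for leukemia inhibitory factor, was at 5.72, 5.91 and 6.01 TPM in HCT116 and listed at 0 in RKO. IL6ST, the gp130 chain with which both pair, was at 11.3, 11.2 and 11.8 TPM in HCT116 and at 31.5, 30.9 and 29.8 in RKO. The ligand LIF was in both, at 92.7 to 95.8 TPM in HCT116 and 139 to 145 in RKO. Among the STAT genes, STAT5A was at 0.02, 0.10 and 0.03 TPM in HCT116 and at 14.3, 14.4 and 13.6 in RKO. SOCS3, a STAT3 target that inhibits the pathway, was at 34.0, 35.9 and 33.9 TPM in HCT116 and at 11.5 in each RKO library. PTPN6, a phosphatase that acts on JAK kinases and is best known from blood cells, was at 40.4, 36.9 and 39.5 TPM in HCT116 and at 0.33, 0.33 and 0.37 in RKO.

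The aryl hydrocarbon receptor, which senses components of tobacco smoke, was nearly missing from RKO. AHR was at 11.9, 11.4 and 13.2 TPM in HCT116 and at 0.05, 0.14 and 0.13 in RKO (difference 3.57 ± 0.07, limma adjusted p = 3.82e-13). Its known targets CYP1A1 (13.99, 14.3 and 14.6 TPM against 1.22, 1.55 and 1.35) and AHRR (11.1, 10.4 and 11.9 TPM against 1.71, 2.23 and 1.70) were also higher in HCT116, with TPM ratios of 10.4 and 5.91. In libraries with a CKAP2L manipulation the mean level of AHR was 12.0 TPM in HCT116 and 0.0867 in RKO.

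Enzymes that handle xenobiotics went both ways. Of 20 tested genes of that list, which includes the 3 just named, 11 were called higher in HCT116, 8 higher in RKO and 1 was not called. The shares over all tested genes were 36.3% higher in HCT116 and 53.5% higher in RKO. The list had a median of 0.54. NQO1, a quinone reductase, was at 293, 288 and 291 TPM in HCT116 and at 61.3, 61.8 and 60.6 in RKO. GSTM1, a glutathione transferase whose gene is deleted in many people, was at 0, 0.07 and 0.03 TPM in HCT116 and at 39.3, 40.6 and 41.4 in RKO. GSTM3 was listed at 0 in HCT116 and was at 15.98, 15.7 and 16.3 TPM in RKO. These transferases are near-identical in parts, so how reads were split between them is uncertain.

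Genes downstream of RAS, RAF and ERK kinases, which HCT116 and RKO are known to activate through different mutations, were not uniformly higher in either line. Of 20 tested genes, 9 were called higher in HCT116 and 11 higher in RKO, against 36.3% and 53.5% of all tested genes. The list had a median of -0.32, with 3 large differences in each direction. The median was -0.13 under median-of-ratios rescaling, -0.16 under quantile normalization and -0.21 without mitochondrial mRNAs. Feedback inhibitors of the pathway were found in both directions. The phosphatase DUSP4 was at 167, 167 and 176 TPM in HCT116 and at 0.65, 0.82 and 0.72 in RKO, and DUSP6 was at 199, 201 and 216 TPM against 70.3, 70.5 and 71.0. SPRY4 and SPRY2, which encode Sprouty proteins, were higher in RKO. SPRY4 was at 361, 360.5 and 346 TPM in RKO and at 52.6, 50.02 and 51.8 in HCT116, and SPRY2 was at 30.2, 31.9 and 31.2 TPM against 6.24, 6.44 and 7.61. FOSL1, an AP-1 subunit that ERK stabilises, was at 794, 805 and 765 TPM in RKO and at 177, 177 and 191 in HCT116, while IER3 was at 1149.6, 1140.2 and 1095 TPM in HCT116 and at 193, 197 and 198 in RKO.

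Other receptor tyrosine kinases were mostly higher in HCT116, 16 of 23 tested against 5 higher in RKO, with a median of 0.94. EPHA1 was at 42.9, 44.1 and 42.8 TPM in HCT116 and at 0.03, 0.05 and 0.16 in RKO, and ROR2, a receptor for WNT5A, was at 16.5, 16.3 and 17.9 TPM and listed at 0 in RKO. DDR1, a collagen receptor, was at 108 to 115 TPM in HCT116 and 19.8 to 21.5 in RKO. AXL, described above, was the 1 large difference towards RKO.

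Genes of the WNT pathway, which acts through beta-catenin, were in the main higher in HCT116. Of 14 tested genes 11 were called higher in HCT116 and 3 higher in RKO, against 36.3% and 53.5% of all tested genes. The list had a median of 1.23, and 8 of the 23 listed genes were below 1 TPM in every control library. The feedback genes RNF43 (9.84, 9.82 and 10.4 TPM against 0.30, 0.22 and 0.27) and NOTUM (18.5, 19.6 and 21.1 TPM against 3.06, 3.26 and 3.42) were large differences, and AXIN2 was at 5.27, 5.29 and 5.70 TPM against 2.55, 2.34 and 2.68. The DNA-binding partners of beta-catenin went opposite ways. TCF7L2 was at 58.8, 58.7 and 65.5 TPM in HCT116 and at 18.5, 17.2 and 16.7 in RKO, and LEF1 was at 0.02, 0 and 0.05 TPM in HCT116 and at 22.4, 22.6 and 20.7 in RKO (difference -4.48 ± 0.06, limma adjusted p = 1.51e-14).

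Mismatch repair genes, which correct errors of DNA copying, differed in both directions. Of 8 tested mismatch repair genes 2 were called higher in HCT116, 4 higher in RKO and 2 were not called. The shares over all tested genes were 36.3% higher in HCT116 and 53.5% higher in RKO. Under median-of-ratios rescaling, under quantile normalization and without mitochondrial mRNAs, 4 were called in each direction. The median of -0.26 became -0.08, -0.12 and -0.16 under these scalings. MSH6 was at 15.2, 14.6 and 15.2 TPM in HCT116 and at 41.1, 43.1 and 39.8 in RKO, and MLH3 at 4.03, 4.10 and 4.94 TPM against 11.7, 11.1 and 10.5. PMS2 was at 24.3, 23.3 and 26.0 TPM in HCT116 and at 16.01, 14.3 and 14.4 in RKO. MGMT, which removes alkyl groups from guanine, was present in both lines, at 18.3 to 19.8 TPM in HCT116 and 37.0 to 38.3 in RKO, and the median of the 11 genes of alkylation and base repair, -0.16, turned to 0.04 under median-of-ratios rescaling.

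Genes reported as methylated in colorectal cancer were read as a list, with no claim on the methylation of either line. Methylation itself was not measured here. Of 34 listed genes 15 were below 1 TPM in every control library and 19 were tested. Of these 15 were called higher in HCT116 and 4 higher in RKO, and 10 were large towards HCT116 and 2 towards RKO, with a median of 2.79. Of the list, 4 named genes were on in HCT116 and listed at 0 in RKO. They were RUNX3, a transcription factor (18.9, 18.4 and 18.9 TPM), and TIMP3, an inhibitor of metalloproteases (11.5, 10.5 and 11.9 TPM). The others were IGFBP3, which binds insulin-like growth factors (11.6, 12.2 and 14.2 TPM), and IGF2 (11.8, 11.8 and 10.3 TPM). IGF2 overlaps a neighbouring gene, so its value is uncertain. HLTF, a helicase-like factor, was at 37.6, 41.2 and 42.3 TPM against 0.08, 0.03 and 0.03. CDKN2A, whose locus makes both p16 and p14ARF, was at 22.7, 24.95 and 25.7 TPM in HCT116 and at 0.19, 0.14 and 0.16 in RKO. HIC1 and VIM were the 2 large differences towards RKO, with HIC1 at 8.43, 9.18 and 7.90 TPM there and at 0.50, 0.40 and 0.33 in HCT116.

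The promoter windows of TIMP3 and HLTF are shown because both genes were on in HCT116 and off in RKO and both windows are rich in CG pairs, the letters that DNA methylation acts on. They are the 250 bases before each gene's start in RefSeq (GRCh38.p14), 5′ to 3′ on the gene's strand, with every CG in capitals. TIMP3 lies at chr22:32801455-32801704 on the plus strand and HLTF at chr3:149086534-149086783 on the minus strand.
TIMP3: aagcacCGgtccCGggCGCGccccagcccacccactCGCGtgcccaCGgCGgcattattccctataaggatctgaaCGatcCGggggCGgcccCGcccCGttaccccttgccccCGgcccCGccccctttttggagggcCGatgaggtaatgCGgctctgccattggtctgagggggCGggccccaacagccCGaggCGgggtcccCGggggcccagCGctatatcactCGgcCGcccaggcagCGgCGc
HLTF: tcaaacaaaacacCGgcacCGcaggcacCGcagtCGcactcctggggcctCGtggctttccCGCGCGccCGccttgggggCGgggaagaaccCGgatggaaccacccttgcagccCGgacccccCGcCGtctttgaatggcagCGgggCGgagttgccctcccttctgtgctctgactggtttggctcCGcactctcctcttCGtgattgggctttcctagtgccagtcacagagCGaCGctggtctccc
The TIMP3 window holds 26 CG pairs and is 72.4% G or C, and the HLTF window holds 20 and is 65.6% G or C. The median of all 35116 windows is 11 CG pairs. At least as many CG pairs as TIMP3 are found in 19.6% of windows and at least as many as HLTF in 32.4%. The on and off genes as a set were not compared for base composition, because windows were found for 310 of the 444 genes (69.8%) and 57 of the 71 (80.3%).

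Cyclins and CDK inhibitors differed in both directions. CCND1, cyclin D1, was at 374, 369 and 391 TPM in HCT116 and at 107, 110.3 and 106 in RKO, a TPM ratio of 3.51, whereas CCND2 was on in RKO only by the rule given above. CDK6, the kinase that both activate, was at 4.70, 4.55 and 4.76 TPM in HCT116 and at 35.4, 34.1 and 32.2 in RKO. CDKN2C, an inhibitor of CDK4 and CDK6, was at 3.26, 2.78 and 2.93 TPM in HCT116 and at 13.8, 13.8 and 13.3 in RKO. CDKN1A, which encodes p21, was at 435, 439.6 and 422 TPM in HCT116 and at 152, 153 and 145 in RKO. Of the 13 tested genes of this group 5 were called higher in HCT116 and 8 higher in RKO, against 36.3% and 53.5% of all tested genes. The group had a median of -0.67.

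GDF15, a secreted protein, was at 1258, 1227 and 1343 TPM in HCT116 and 12.9, 12.1 and 11.5 in RKO, a TPM ratio of 105, and PLK3, a kinase, was at 132, 132 and 139 TPM against 18.6, 19.4 and 18.6. MDM2, a ubiquitin ligase, was at 25.2, 27.0 and 27.1 TPM in HCT116 and 56.3, 54.8 and 53.6 in RKO.

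Mitotic genes, to which CKAP2L belongs, were mostly higher in RKO. Of 28 tested genes of G2/M and the spindle 22 were called higher in RKO, 4 higher in HCT116 and 2 were not called. The shares over all tested genes were 53.5% higher in RKO and 36.3% higher in HCT116. The list had a median of -0.81 and 0 large differences. Under median-of-ratios rescaling the median was -0.61. The mitotic kinase AURKA was at 30.8, 30.2 and 32.9 TPM in HCT116 and 101, 98.7 and 97.1 in RKO, and its activator TPX2 at 121, 124 and 128 TPM against 265, 269.7 and 261. CENPF, a kinetochore protein, was at 19.6, 19.8 and 22.6 TPM in HCT116 and 80.1, 77.8 and 73.6 in RKO, and the kinesin KIF11 at 21.5, 21.1 and 23.4 TPM against 73.2, 70.7 and 69.6. HMMR and PRC1 went the other way. HMMR, a spindle assembly factor, was at 19.2, 24.1 and 24.1 TPM in HCT116 and 7.45, 7.44 and 7.08 in RKO, and PRC1, which bundles midzone microtubules, at 82.3, 78.2 and 82.6 TPM against 49.99, 47.5 and 47.0.

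The lines lacked different members of one DNA-sensing pathway. CGAS, the sensor of cytosolic DNA (ENSG00000164430, chromosome 6, 73413515 to 73452276, minus strand), was at 0, 0 and 0.03 TPM in HCT116 and at 30.8, 31.2 and 32.4 in RKO (difference -5.01 ± 0.06, limma adjusted p = 3.12e-15). STING1, the adaptor that its product activates (ENSG00000184584, chromosome 5, 139475534 to 139482935, minus strand), was at 34.3, 36.1 and 33.7 TPM in HCT116 and at 0, 0.03 and 0.05 in RKO (difference 5.12 ± 0.06, limma adjusted p = 3.03e-15). In the control libraries neither line thus had both transcripts above the limit for off. With the CKAP2L manipulations CGAS was at 0 to 0.05 TPM in HCT116 and at 26.5 to 28.0 in RKO, and STING1 was at 45.6 to 47.5 TPM in HCT116 and 0.11 to 0.13 in RKO. IFI16, another DNA sensor, was at 162, 162 and 156 TPM in RKO and at 0.22, 0.42 and 0.36 in HCT116.

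Interferon-induced genes were for the most part higher in HCT116, with large exceptions. Of 22 tested genes, which include CGAS and STING1, 15 were called higher in HCT116 and 6 higher in RKO, with a median of 1.09 that was 0.58 under quantile normalization. OASL, an antiviral protein, was at 14.7, 12.95 and 13.4 TPM in HCT116 and listed at 0 in RKO, IFI6 was at 94.4, 118 and 102 TPM against 17.3, 17.5 and 18.2, and ISG15, a ubiquitin-like modifier, at 339, 329.9 and 361 TPM against 92.3, 104 and 101. BST2, given above, and MX1, an antiviral GTPase (2.11, 2.14 and 2.6 TPM against 21.2, 21.0 and 21.3), were large differences towards RKO.

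Antigen presentation genes were called higher in RKO in 13 of 18 tested genes and higher in HCT116 in 5, against 53.5% and 36.3% of all tested genes, with a median of -0.44. Under median-of-ratios rescaling 10 were called higher in RKO and the median was -0.23, and under quantile normalization the median was -0.26. PSMB8, a catalytic subunit of the immunoproteasome, was at 2.01, 2.78 and 2.32 TPM in HCT116 and at 70.7, 71.5 and 67.8 in RKO, and ERAP2, which trims peptides for class I molecules, at 0.77, 0.55 and 0.89 TPM against 20.9, 20.9 and 19.99. HLA-B was higher in HCT116, at 477, 470.2 and 470.2 TPM against 115, 119.9 and 112. HLA reads depend on how each line's alleles match the reference, so these values are uncertain.

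Cytokine genes and targets of NF-kB numbered 15 tested, of which 10 were called higher in HCT116 and 4 higher in RKO, with a median of 0.81. CXCL1, a chemokine for neutrophils, was at 16.3, 18.6 and 14.97 TPM in HCT116 and at 1.06, 0.71 and 0.50 in RKO. ICAM1, an adhesion molecule for leukocytes, was higher in RKO, at 69.7, 67.4 and 64.7 TPM against 16.1, 14.04 and 14.7, as was IL32.

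Apoptosis regulators were called higher in RKO in 16 of 25 tested genes and higher in HCT116 in 6, against 53.5% and 36.3% of all tested genes, with a median of -0.59. Under median-of-ratios rescaling and without mitochondrial mRNAs 9 were called higher in HCT116 and 16 higher in RKO. The lines differed in which survival gene had abundant mRNA, while protein was not measured. MCL1 was at 575, 577 and 555 TPM in RKO and at 101, 103 and 101 in HCT116, BCL2A1 was on in RKO only by the rule above, and BCL2L1, which encodes BCL-XL, was at 379, 379 and 388 TPM in HCT116 and at 148, 156 and 152 in RKO. BIK, a BH3-only activator of apoptosis, was at 80.5, 85.9 and 76.7 TPM in HCT116 and at 10.6, 11.8 and 8.88 in RKO.

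S100 proteins and annexins, which bind calcium, were called higher in HCT116 in 8 of 16 tested genes, higher in RKO in 5 and not called in 3, with a median of 0.20. Under median-of-ratios rescaling and quantile normalization 10 were called higher in HCT116 and the median was 0.40. Neighbouring S100 genes of chromosome 1 went opposite ways. S100A4 was at 587, 605 and 530.2 TPM in HCT116 and at 1.00, 0.65 and 0.11 in RKO. S100A2 was at 887, 939 and 969.5 TPM in RKO and at 26.2, 26.9 and 21.6 in HCT116, and S100A16 was at 1514, 1591 and 1505 TPM against 359, 351 and 361. ANXA1 was at 446, 459 and 491 TPM in HCT116 and at 13.49, 12.3 and 13.8 in RKO. Of 5 tested metallothioneins 1 was called higher in HCT116 (2 under median-of-ratios rescaling) and 3 higher in RKO. MT1M was listed at 0 in HCT116 and was at 45.4, 44.1 and 47.0 TPM in RKO, although these short genes resemble each other closely.

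HOX genes, which mark position along the body, were higher in RKO in part of the clusters. Of 10 tested HOXA genes 8 were called higher in RKO and 0 higher in HCT116, with a median of -1.25. Of 8 HOXC genes 6 were called higher in RKO and 2 in HCT116, with a median of -1.90. The shares over all tested genes were 53.5% higher in RKO and 36.3% higher in HCT116. The 9 tested HOXB genes had a median of 0.29, with 5 called higher in HCT116 and 2 in RKO, and a median of 0.48 under median-of-ratios rescaling. HOXA9 was at 110.1, 113 and 115 TPM in RKO and at 35.9, 41.1 and 35.9 in HCT116. HOXC8 was at 27.2, 25.7 and 25.3 TPM against 0.22, 0.45 and 0.74, HOXB2 at 55.4, 52.4 and 52.4 TPM against 2.36, 1.84 and 2.67, and HOXD9 at 17.5, 16.5 and 17.5 TPM against 0.52, 0.12 and 0.64. HOXC13, at the end of its cluster, was higher in HCT116, at 5.67, 5.37 and 6.80 TPM against 0.22, 0.38 and 0.29.

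Cancer-testis antigens, which normal tissues other than the germ line rarely make, were mostly silent in both lines: 30 of 37 listed genes were below 1 TPM in every control library and 16 were listed at 0 in all 6. MAGEB2 (159, 175 and 174 TPM) and MAGEA3 (129.9, 128 and 144 TPM) were on in HCT116, and in RKO MAGEA3 was listed at 0 and MAGEB2 was at 0, 0.08 and 0. MAGEA3 and MAGEA6 are near-identical, so their split is uncertain. PRAME was in both lines, at 44.4 to 45.0 TPM in HCT116 and 55.5 to 58.2 in RKO.

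Genes that every cell uses bracket these contrasts. Of 11 such genes 6 were called higher in HCT116 and 4 higher in RKO, with 0 large differences and a median of 0.14, which was 0.35 under median-of-ratios rescaling. GAPDH was at 4248 to 4417 TPM in HCT116 and 3332 to 3397 in RKO, and ACTB at 2204 to 2372 and 4027 to 4069 TPM. The 13 mitochondrially encoded mRNAs had a median of 0.38, with 8 called higher in HCT116 and 4 higher in RKO. Under quantile normalization the median was -0.09, with 5 and 7 called, and under median-of-ratios rescaling it was 0.60.

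**Figure D4:**
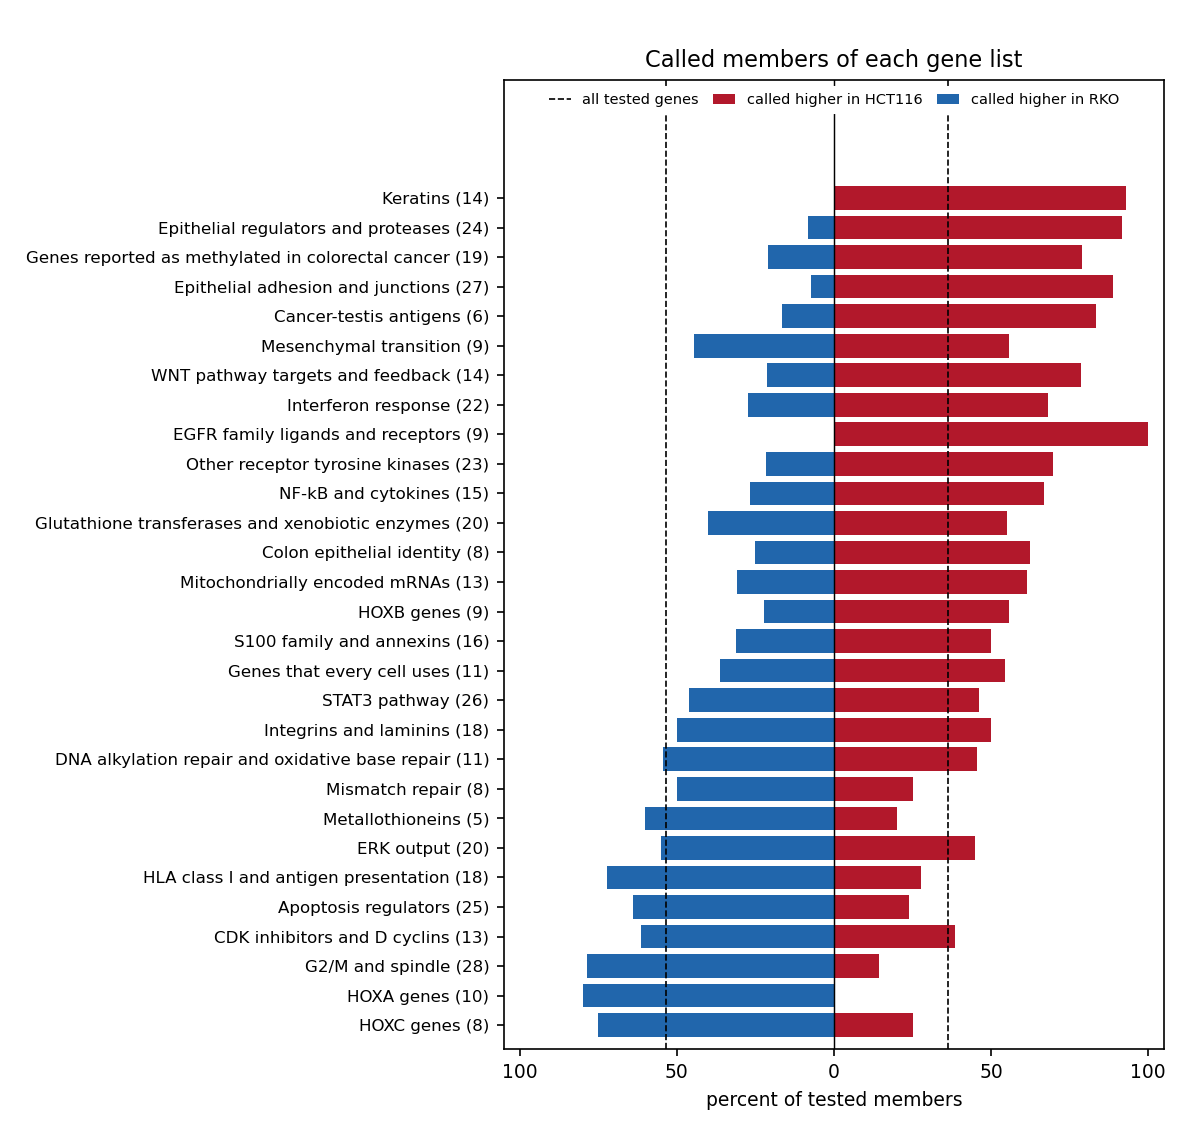
Percent of the tested members of each gene list that limma called higher in HCT116 (red, to the right) or higher in RKO (blue, to the left), with the number tested in brackets, for the lists described here with at least 5 tested members. The dashed lines stand at 36.3% and 53.5%, the shares over all 12609 tested genes, and the keratin, EGFR family and epithelial lists reach farthest to the right of them.

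Zinc finger genes of the ZNF, ZFP, ZSCAN and ZKSCAN families, many of which encode repressors of transposable elements, were chosen as a group after their values were seen and are described without a test. Of the 569 such genes 442 were tested. Of these 442, 348 were called higher in RKO and 67 higher in HCT116, against 53.5% and 36.3% of all tested genes. The zinc finger median difference was -0.69 against -0.20 for all tested genes. Large differences numbered 69 towards RKO and 15 towards HCT116, against 3.24% and 9.67% of all tested genes. By the on and off rule 24 of the 71 genes on in RKO and off in HCT116 were zinc finger genes. In the other direction 7 of the 444 were. With an off limit of 1 TPM the numbers were 36 of 150 and 9 of 710. Chromosome 19, which holds 263 of the 569, had 17 of the 24, and chromosome 12 had 4.

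**Figure D5:**
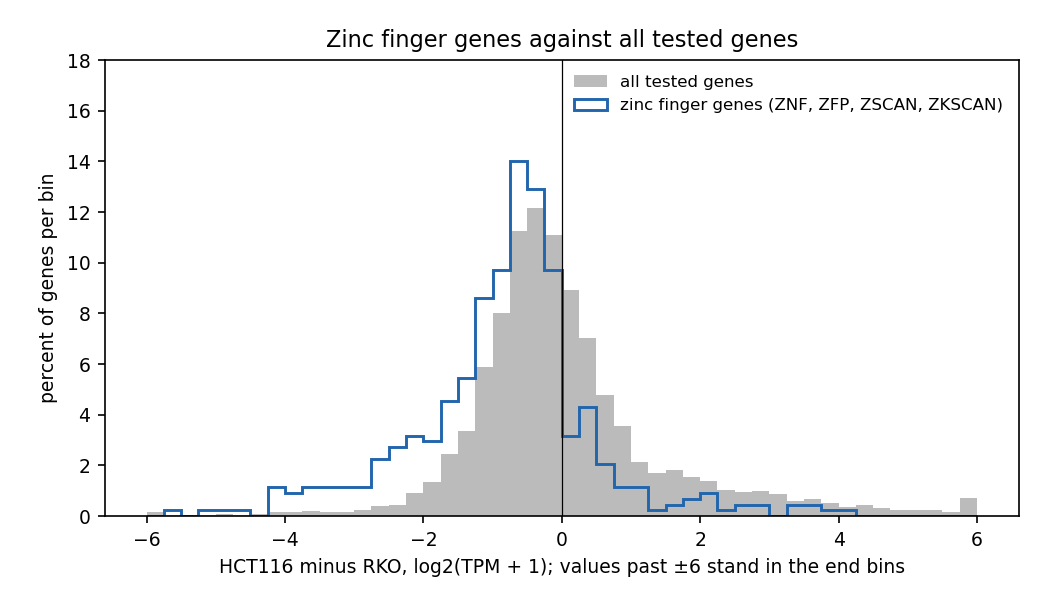
Distribution of HCT116 minus RKO differences on the log2(TPM + 1) scale, as percent of genes per bin, for 442 tested zinc finger genes (blue outline) and all 12609 tested genes (grey). The zinc finger genes lie farther to the left, with a median of -0.69 against -0.20.

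Some on and off genes stood next to each other once genes on in neither line were skipped (positions from GENCODE release 29, GRCh38). Skipped genes may lie between the members of a run. At the end of chromosome 12, ZNF140, ZNF891 and ZNF10 (133079838 to 133159465) were listed at 0 in each HCT116 library and were at 15.1 to 16.4, 7.11 to 7.91 and 10.1 to 10.9 TPM in RKO. On chromosome 19, ZNF253, ZNF486 and ZNF737 (19865886 to 20565809) formed another such run, at 10.6 to 14.6 TPM in RKO. These repeats of one gene family share sequence, and how such shared reads were counted is not known here.

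Runs on in HCT116 and off in RKO covered other families. Counted in the same way, the kallikrein genes KLK5, KLK6 and KLK7 formed a run on chromosome 19 (50943303 to 50984099). KRT20, KRT23 and KRTAP3-1 formed one on chromosome 17 (40875941 to 41019324). On chromosome 11 the beta-globin region (5253190 to 5505652) held HBG2, HBE1 and the olfactory receptor genes OR51B4, OR51B2 and OR51I1, where the annotated span of HBG2 covers the others, so their reads may be shared. HBG2 was at 33.8, 30.2 and 35.2 TPM in HCT116 and listed at 0 in RKO. GABRQ, MAGEA3 and CSAG3 formed a run on chromosome X (152638183 to 152760222). Chromosome 19 had the most on and off genes, 44 on in HCT116 and 17 on in RKO among 1469 genes, the 17 all being zinc finger genes. Chromosome 10 had 25 and 0 among 728 genes. Over all 20263 genes the shares were 2.19% and 0.35%. Median differences of the chromosomes ran from -0.60 for chromosome 9 to 0.16 for chromosome 17.

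The libraries with CKAP2L manipulations gave nearly the same picture of the lines. Between HCT116 with the construct and RKO with the short hairpin, limma called 11517 of 12711 genes (90.6%), with 1232 large differences towards HCT116 (9.69%) and 379 towards RKO (2.98%). They share no library with the controls but come from the same 2 tables. The manipulations moved some line-specific genes without closing the gap between the lines. CCND2 was at 65.2, 67.2 and 68.2 TPM in RKO with the short hairpin, below all 3 control values, and at 0.13 to 0.15 TPM in HCT116 with the construct. S100A2, at 887 to 970 TPM in control RKO, had a mean of 2076 TPM with the short hairpin, and STC1 a mean of 1372 TPM. In HCT116, EREG was at 88.5 to 92.5 TPM with the construct against 54.2 to 58.2 with the vector, and it was listed at 0 in all 6 RKO libraries.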

How the data were processed

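For each line the authors deposited a table with the TPM of 20263 Ensembl genes and a column for each library. The tools named, per the submitters' processing notes, are HISAT2 2.0, bedtools 2.26.0, Trimmomatic 0.36 and FastQC 0.11.2, and the build is GRCh38. Not given in the sources used here are the counting tool, the annotation and the use of strand, so overlapping and antisense genes are uncertain. TPM is scaled within each library, so a change in abundant transcripts moves all other values, and it keeps no depth, so no counting interval was computed. Libraries were grouped by their titles.

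The tables were joined on the Ensembl identifier. A table of gene names gave 19761 symbols and GENCODE release 29 another 463, while 39 identifiers had none. Genes with a mean of at least 1 TPM over the 6 control libraries were kept. The nearest genes to this limit were PLXDC1, outside at 0.998, and CFP, inside at 1.0, and a gene that passed through 1 line had to differ. Values were tested as log2(TPM + 1) with limma 3.58.1, run in R 4.3.3 (prior variance with a trend, 3 libraries against 3, no covariates, two-sided). Benjamini-Hochberg adjustment ran over all 12609 tested genes, and a gene was called at an adjusted p under 0.05. Manipulated libraries were fitted the same way on their own. The fit was tested on simulated data.

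The comparison and the 35 gene lists were chosen with earlier results of these data known, and lists are described by counts and medians with no set test. Named genes were the 4 of the title, the 20 with the largest difference per direction, the 15 most abundant on and off genes per direction and up to 6 called members per list with the largest difference. Other genes in the text were chosen after their values were seen. Promoter windows were read from RefSeq. Alternatives were 2 other pseudocounts, 2 other filters, 3 other scalings, a fit of all 12 libraries, no variance trend, a replicate block, each library left out and other limits for on and off. Some genes are not reported here.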

Additional observations from a re-analysis of the deposited data

How the results depend on the processing

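Of 3390 values of named genes under the alternatives, 3386 kept their direction and their side of the threshold and 0 reversed. Most of these genes were chosen as called genes with large differences in these data, so this result was largely set by the choice. The 4 others lost their call: MT1X at -0.06 under median-of-ratios rescaling (limma adjusted p = 0.356) and -0.10 under quantile normalization (limma adjusted p = 0.107), MT-CO1 at 0.00 and PAGE2B at 0.11 under quantile normalization (limma adjusted p = 1.0 and 0.533). The cause was not tested. List medians had another measure, the SD of the list median between replicates combined over both groups, so their counts cannot be compared with those of genes. Counted per list and setting, 187 medians moved by more than this SD and 372 by less. With a pseudocount of 5 the median of the genes reported as methylated fell from 2.79 to 1.28, that of epithelial regulators from 4.31 to 2.65 and that of cytokine genes from 0.81 to 0.42. Counts of large differences depended on the pseudocount and the filter. With a pseudocount of 5, which lowers every log ratio by construction, 506 genes were higher in HCT116 and 173 in RKO among the controls, and 543 and 163 among the manipulated libraries. A filter at a mean of 5 TPM, which tests fewer genes, left 773 and 788 towards HCT116. For on and off genes, an off limit of exactly 0 gave 260 and 26. An on limit of 10 TPM gave 272 on in HCT116, an on limit of 2 TPM gave 670 and 108, and an off limit of 0.5 TPM gave 120 on in RKO. Median-of-ratios rescaling called 5684 genes higher in HCT116 and 5634 in RKO. Leaving out each library in turn, 4377 to 4627 genes were called higher in control HCT116 and 6534 to 6838 in control RKO, with 1209 to 1227 and 401 to 420 large differences. Among manipulated libraries these ranges were 4969 to 5199, 6143 to 6359, 1229 to 1237 and 377 to 386. Leaving out each control library gave 446 to 465 genes on in HCT116 and off in RKO, and 71 to 77 in the other direction. The rule asks every library to pass, so these counts could not fall below those with all libraries. With the replicate number as a block 4525 and 6687 control genes were called. Same-numbered libraries did not deviate together (r = -0.0481, -0.0474 and -0.0964 across genes). With 3 libraries per group, this cannot tell whether same-numbered libraries were prepared together.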
